A study of Mus musculus with 16 samples.

Results

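The genes described here are the axon guidance ligands and receptors on the Illumina MouseRef-8 v2 array: the semaphorins with plexins and neuropilins, the ephrins with Eph receptors, the Slits with Robo receptors, and the netrins with Neo1 and the Unc5 receptors. They were chosen by gene symbol alone (Sema, Plxn, Efna, Efnb, Epha, Ephb, Slit, Robo, Unc5 and Ntn followed by a digit, plus Nrp1, Nrp2, Dcc and Neo1). The rule took 66 of the 16593 genes named on the array. Of these, 44 had a probe with a detection p-value under 0.05 on at least 8 of 16 arrays and were tested, among 10244 tested genes in all. No probe named Dcc was among those used, so this netrin receptor was not analysed here. Unc50 and Unc5cl also fit the rule by their letters but are not netrin receptors.

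Hypothalamic RNA was measured in female F1 mice of the C57BL/6J strain at 21 days of age, with 1 array per mouse and 8 mice per group. LUN mice (lactation undernutrition) were raised from birth to weaning by mothers given 50% of the food eaten by control mothers. CON mice were raised by mothers fed without this restriction, and every litter was kept at 8 pups. The comparison asks whether undernutrition during lactation changes hypothalamic gene expression at weaning. No genetic change distinguished the groups. The tissue was a dissected block, so its borders with neighbouring regions were set by hand.

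Guidance molecules steer growing axons: a ligand, secreted or held on a cell membrane, binds a receptor on the growth cone and turns the axon towards or away from its source. Semaphorins signal through plexins, with neuropilins as co-receptors for the secreted class 3 members, ephrins through Eph receptor kinases, Slits through Robos, and netrins through Dcc, neogenin and Unc5 receptors. In the developing hypothalamus such cues are known for routing projections between nuclei and for the migration of neurons that make gonadotropin-releasing hormone, and many of the genes are still expressed at synapses and in vessels after axon growth has ended.

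The mean scanner signal was 377 ± 23.6 on LUN arrays and 451 ± 35.2 on CON arrays (SD, n = 8 each), and 14540 to 15051 probes were detected on LUN arrays, against 14560 to 15384 on CON arrays. The arrays were on 2 BeadChips with 4 mice of each group on each, and CON mice held the first positions and LUN mice the last, so position on the BeadChip and group cannot be told apart. Arrays CON 4 and CON 8 stood apart from the other 6 CON arrays in genes of the thalamus, the region above the hypothalamus, and results are given with and without them. Each held the last of the CON positions on its BeadChip, and whether position played a part was not tested. Values are background-corrected, quantile-normalized log2 intensities, and a change is the LUN mean minus the CON mean on that scale. A gene is said to have risen or fallen in LUN mice where its Benjamini-Hochberg adjusted p in limma, over all tested probes, was under 0.05.

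Few guidance ligands and receptors changed, and the changes were small. The receptor Epha7 and the semaphorins Sema4g and Sema6b rose in LUN mice, while the semaphorin Sema4f and the receptor Ephb1 fell. The 3 that rose were 6.82% of the 44 tested members, against 7.17% of all tested genes. The 2 that fell were 4.55% of the members, against 8.59% of all tested genes. Neither share was above that of the array as a whole. None of the 5 reached 1.5-fold, a size that 1.39% of all tested genes reached while past the adjusted p. Fewer cells that express a gene and less of its RNA per cell cannot be told apart in these values.

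The median change over the 44 members was 0.01, against -0.01 over all tested genes, and the median size of a change without its sign was 0.10 in both. For 43 members (97.7%) the 95% interval of the change lay within 1.5-fold in either direction, against 94.2% of all tested genes. Epha7 was the exception. The 39 members that did not pass had changes between -0.24 and 0.19, and the bound of the interval farther from 0 had a median of 0.25. Ligands and receptors gave much the same counts: 2 of 22 tested ligands rose and 1 fell, with a median change of -0.02, and 1 of 22 tested receptors rose and 1 fell, with a median of 0.02. Of the 44 members, 29 had the same sign of change on both BeadChips.

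**Figure D1:**
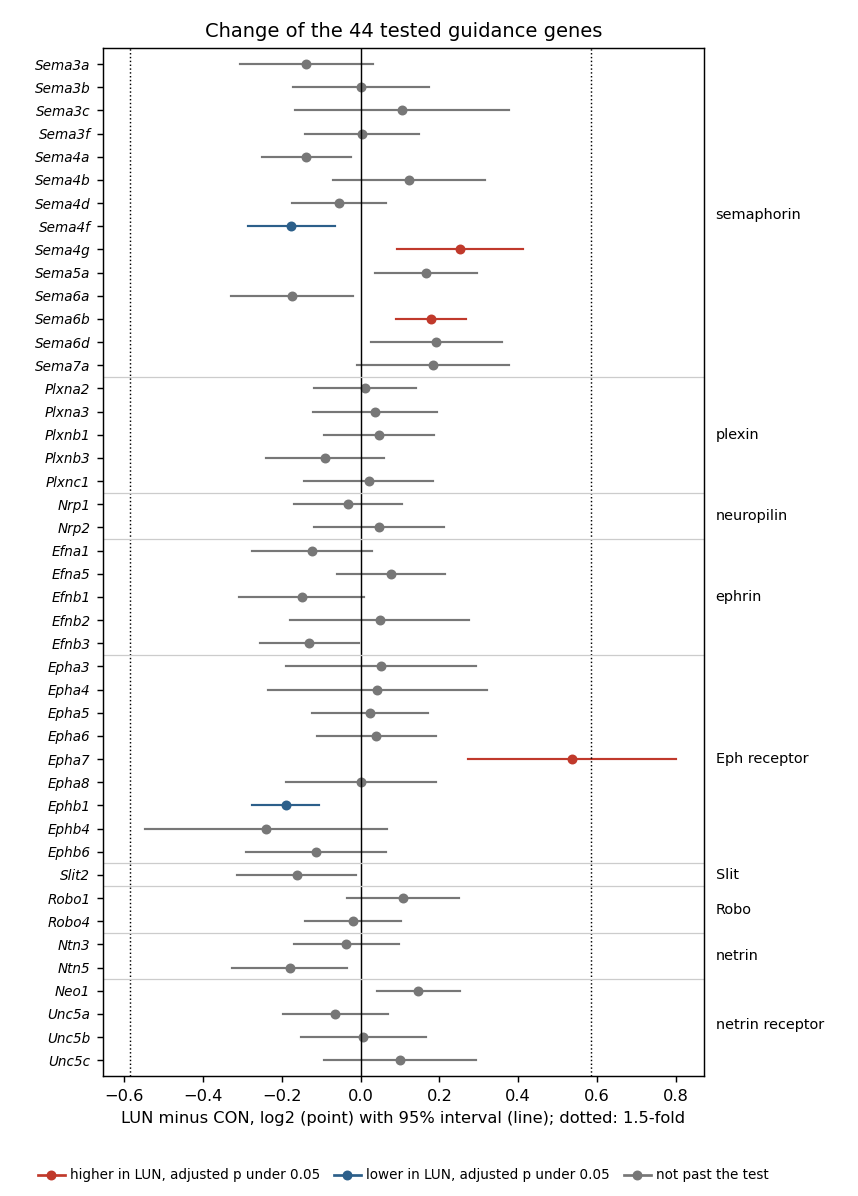
Change of each of the 44 tested members (horizontal axis, LUN minus CON in log2 units, with the 95% interval as a line), grouped by family from semaphorins at the top to netrin receptors at the bottom. Of all members, Epha7 alone has an interval that crosses a dotted line at 1.5-fold, and 39 members are drawn in grey because they did not pass the test.

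Among the semaphorins, 14 of 18 on the array were tested, and Sema4g, Sema6b and Sema4f passed. Sema4g, a membrane-bound class 4 semaphorin, had a lowest value of 7.79, a median of 8.18 and a highest of 8.32 on LUN arrays, against 7.67, 7.97 and 8.04 on CON arrays. LUN 4 alone was low, and the other 7 LUN arrays lay above every CON array. The change was 0.25 (SE 0.08, adjusted p = 0.0327), and it was 0.28 on BeadChip 1 and 0.23 on BeadChip 2. The call was lost when any of 9 arrays was left out (CON 1, CON 3, CON 6, LUN 1, LUN 2, LUN 3, LUN 5, LUN 6 or LUN 8), with adjusted p-values of 0.0512 to 0.0678.

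Sema6b, a transmembrane class 6 semaphorin, had a lowest value of 9.19, a median of 9.35 and a highest of 9.45 on LUN arrays, against 9.09, 9.15 and 9.25 on CON arrays. The groups overlapped only through LUN 1 at 9.19, which lay under CON 4 at 9.25 and CON 8 at 9.21. The change was 0.18 (SE 0.04, adjusted p = 0.00935), and it was 0.18 on each BeadChip and past the test whichever array was left out. Without normalization between arrays the changes of Sema6b and Sema4g turned to -0.11 and -0.04, and with median scaling they were 0.05 (adjusted p = 0.451) and 0.12 (adjusted p = 0.265), so that neither call was kept under these scalings.

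Sema4f, a class 4 semaphorin known from rat neurons to bind a scaffold protein of the synapse, had a lowest value of 8.19, a median of 8.24 and a highest of 8.37 on LUN arrays, against 8.24, 8.42 and 8.65 on CON arrays. Apart from CON 4, which was as low as the LUN arrays, every CON array lay above every LUN array. It fell by 0.18 (SE 0.05, adjusted p = 0.0298), and the arrays of BeadChip 1 gave -0.16 and those of BeadChip 2 -0.19. Leaving out any of 7 arrays (CON 2, CON 3, CON 5, LUN 1, LUN 3, LUN 6 or LUN 7) gave adjusted p-values of 0.0514 to 0.0590.

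The other 11 tested semaphorins did not pass. Among the secreted class 3 semaphorins, the change was -0.14 for Sema3a, a repellent that binds Nrp1, 0.00 for Sema3b, 0.11 for Sema3c and 0.00 for Sema3f, which binds Nrp2. Sema3a had a lowest value of 7.43, a median of 7.61 and a highest of 7.70 on LUN arrays, against 7.33, 7.79 and 7.89 on CON arrays. Its 2 lowest CON values were those of CON 4 and CON 8, and the other 6 CON arrays lay above every LUN array. In class 4, Sema4a had -0.14 (adjusted p = 0.0955), Sema4b 0.12 and Sema4d, the ligand of Plxnb1, -0.05. Sema5a, a transmembrane semaphorin with thrombospondin repeats, had 0.17 (adjusted p = 0.0755), Sema6a -0.17, Sema6d 0.19 and Sema7a, which is anchored by a lipid and binds Plxnc1, 0.18. The class 6 members thus had changes of both signs, with Sema6b and Sema6d positive and Sema6a negative.

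Sema5a had a lowest value of 10.4, a median of 10.5 and a highest of 10.6 on LUN arrays, against 10.2, 10.3 and 10.6 on CON arrays. The CON arrays CON 4 and CON 8 were the high ones, at 10.59 and 10.60, and the other 6 CON arrays lay below every LUN array. Sema6d ranged between 8.14 and 8.75 on LUN arrays with a median of 8.42, and between 7.98 and 8.46 on CON arrays with a median of 8.25. Its highest value was that of LUN 7 and its lowest that of CON 2, and most arrays of the groups overlapped.

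The semaphorin receptors were nearly level between the groups. Of 8 plexins on the array 5 were tested, and none passed: the change was 0.01 for Plxna2, 0.04 for Plxna3, 0.05 for Plxnb1, -0.09 for Plxnb3 and 0.02 for Plxnc1. Plxna2 had a lowest value of 8.49, a median of 8.75 and a highest of 8.88 on LUN arrays, against 8.56, 8.72 and 8.84 on CON arrays, so that the groups covered nearly the same range. Both neuropilins were tested, with a change of -0.03 (95% interval -0.17 to 0.11) for Nrp1 and 0.05 (95% interval -0.12 to 0.21) for Nrp2. The intervals of all 7 semaphorin receptors lay within 1.5-fold.

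**Figure D2:**
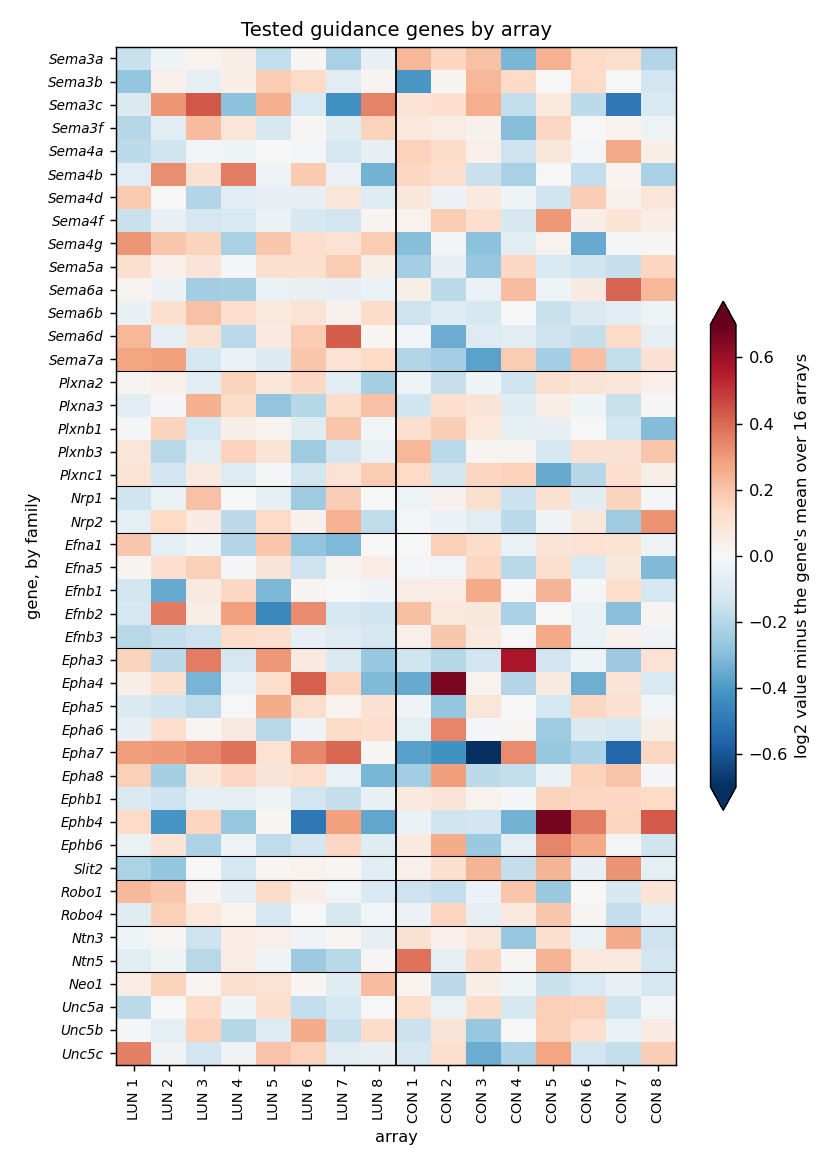
Value of each tested member on each array minus the mean of that gene over 16 arrays (colour, log2 units), with genes in rows by family and LUN arrays in the left columns. Epha7 is above its mean on all 8 LUN arrays, on CON 4 and on CON 8, and Ephb1 is below its mean on every LUN array.

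Of 13 Eph receptors on the array 9 were tested, and 1 rose and 1 fell. Epha7, a receptor for ephrin-A ligands that also has forms without a kinase domain, had a lowest value of 8.46, a median of 8.77 and a highest of 8.85 on LUN arrays, against 7.66, 8.13 and 8.78 on CON arrays. Its level averaged 8.72 ± 0.14 on LUN arrays and 8.18 ± 0.36 on CON arrays (SD, n = 8 each). CON 4 at 8.78 and CON 8 at 8.60 lay within the LUN range, and the other 6 CON arrays, at 7.66 to 8.23, lay below every LUN array. The change was 0.54 (SE 0.13, 95% interval 0.27 to 0.80, adjusted p = 0.00829), a fold of 1.45, and it was 0.64 on BeadChip 1 and 0.44 on BeadChip 2. It passed the test whichever array was left out, but not without normalization between arrays (0.25, adjusted p = 0.0641), where the median over all tested genes was -0.26. Without CON 4 and CON 8 the change was 0.71 (adjusted p = 6.19e-05), which made it the one member past 1.5-fold. These arrays were singled out from these same data and lay within the LUN range here. A larger change without them follows from that choice and is no independent support.

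Ephb1, a receptor for ephrin-B ligands that turns retinal axons away from the midline at the optic chiasm, had a lowest value of 9.44, a median of 9.52 and a highest of 9.57 on LUN arrays, against 9.59, 9.72 and 9.76 on CON arrays. Every LUN array lay below every CON array. Ephb1 was the only one of the 44 members whose groups did not overlap, against 2.25% of all tested genes. It fell by 0.19 (SE 0.04, adjusted p = 0.00467) and passed whichever array was left out. The arrays of BeadChip 1 gave -0.14 and those of BeadChip 2 -0.24. Without normalization between arrays the change was -0.47 (adjusted p = 0.000108). In that setting the median over all tested genes was itself -0.26, and 60.1% of all tested genes fell.

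The other 7 Eph receptors did not pass. The changes were 0.05 for Epha3, 0.04 for Epha4, 0.02 for Epha5, 0.04 for Epha6, 0.00 for Epha8, -0.11 for Ephb6, whose kinase domain is inactive, and -0.24 for Ephb4, best known from veins. The 5 EphA receptors beside Epha7 thus lay close to 0. Of these, Epha4, Epha6 and Epha8 had group means of 5.07 to 5.44, near the low end of what the arrays detect, so a change there could be missed. Ephb4 had the largest negative change of all members but also a wide spread, with values of 4.63 to 5.42 on LUN arrays (median 5.00) and of 4.80 to 5.80 on CON arrays (median 5.19), and an adjusted p of 0.285. It was detected on 4 LUN arrays and 7 CON arrays.

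**Figure D3:**
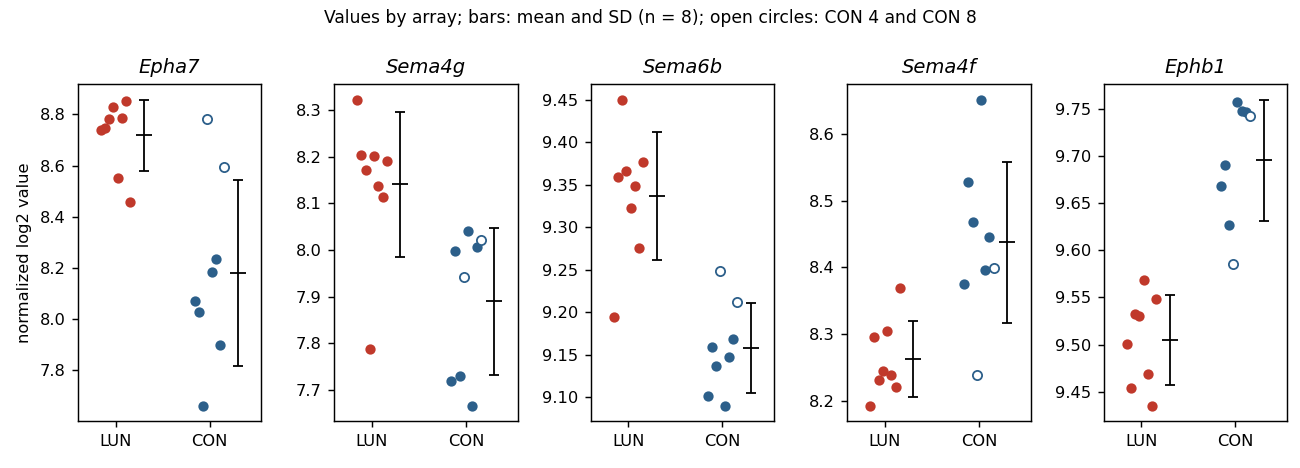
Normalized log2 value of the 5 members past the test on each array (points), with the mean and SD of each group beside them (n = 8), LUN left of CON in each panel; the vertical axes differ between panels and do not start at 0. Open circles are CON 4 and CON 8, which lie within the LUN range for Epha7, Sema6b and Sema4g, where LUN 4 alone widens the range of Sema4g. For Sema4f CON 4 lies within the LUN range and CON 8 above it, while the panel of Ephb1 shows no overlap between the groups.

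Of the 8 ephrins on the array 5 were tested, and none passed. The change was -0.12 for Efna1 and 0.08 for Efna5, ligands held on the membrane by a lipid anchor, and -0.15 for Efnb1, 0.05 for Efnb2 and -0.13 for Efnb3, which span the membrane. Efna5 had a lowest value of 10.4, a median of 10.5 and a highest of 10.7 on LUN arrays, against 10.2, 10.5 and 10.6 on CON arrays. The ranges nearly coincided, and CON 8 and CON 4 were the lowest arrays of all. Efnb3 ranged between 6.32 and 6.64 on LUN arrays (median 6.41) and between 6.47 and 6.77 on CON arrays (median 6.54), with an adjusted p of 0.157.

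Among the Slits and their receptors no member passed. Slit2, a secreted repellent of the midline, had a lowest value of 8.60, a median of 8.82 and a highest of 8.89 on LUN arrays, against 8.70, 8.94 and 9.18 on CON arrays. The highest values were all CON, but CON 4, CON 8 and CON 6 lay within the LUN range. The change was -0.16 (SE 0.07, adjusted p = 0.140). Robo1, a neuronal Slit receptor, ranged between 9.85 and 10.2 on LUN arrays and between 9.69 and 10.1 on CON arrays, with a change of 0.11 (adjusted p = 0.298), and Robo4, the Robo of endothelial cells, had a change of -0.02 (adjusted p = 0.861). The Slit2 ligand and the Robo1 receptor thus had changes of opposite sign, neither past the test.

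Netrins and their receptors did not pass either. Neo1, or neogenin, which binds netrins and also repulsive guidance molecules, came closest: its lowest value was 9.46, its median 9.62 and its highest 9.76 on LUN arrays, against 9.36, 9.47 and 9.59 on CON arrays. LUN 3, LUN 6 and LUN 7 lay within the CON range, and the other LUN arrays lay above all CON arrays. The change was 0.15 (SE 0.05, adjusted p = 0.0575). The call was gained without CON 3 or without LUN 7 (adjusted p-values of 0.0462 and 0.0329), and also with no background correction (adjusted p = 0.0411). The repulsive receptors Unc5a, Unc5b and Unc5c had changes of -0.06, 0.01 and 0.10.

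Of the netrin ligands, Ntn3 and Ntn5 were tested, and Ntn1, the founding member of the family in mammals, was detected on no array. Ntn3 had a change of -0.04 and Ntn5 one of -0.18 (adjusted p = 0.0892). Ntn5 ranged between 4.84 and 5.14 on LUN arrays with a median of 5.04, and between 4.96 and 5.47 on CON arrays with a median of 5.16, near the low end of what the arrays detect. Its highest value was that of CON 1, and its lowest that of LUN 6.

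For 9 members several probes were tested, and the text above gives the probe with the highest mean. In 4 of them the probes differed in passing the test. For Epha7 the second probe rose by 0.44 (adjusted p = 0.0205) and the third, detected on 7 LUN and 3 CON arrays, had a change of 0.21 (adjusted p = 0.207). For Sema6b the 2 dimmer probes had changes of 0.16 and 0.12 with adjusted p-values of 0.0725 and 0.570, so its call rests on the brightest probe, although all 3 changes were positive. For Sema5a the dimmer probe rose by 0.20 (adjusted p = 0.0152), next to 0.17 for the brighter one.

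Ntn3 was the other member whose probes disagreed. Its dimmer probe had a lowest value of 6.21, a median of 6.53 and a highest of 6.63 on LUN arrays, against 6.59, 6.86 and 7.11 on CON arrays, and averaged 6.50 ± 0.15 on LUN arrays and 6.86 ± 0.17 on CON arrays (SD, n = 8 each). It fell by 0.36 (adjusted p = 0.00464), while the brighter probe had -0.04 (adjusted p = 0.748). In the RefSeq annotation of GRCm38.p6 the span of Ntn3 overlaps that of Tbc1d24. Which transcripts each of the probes reads was not analysed here.

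**Figure D4:**
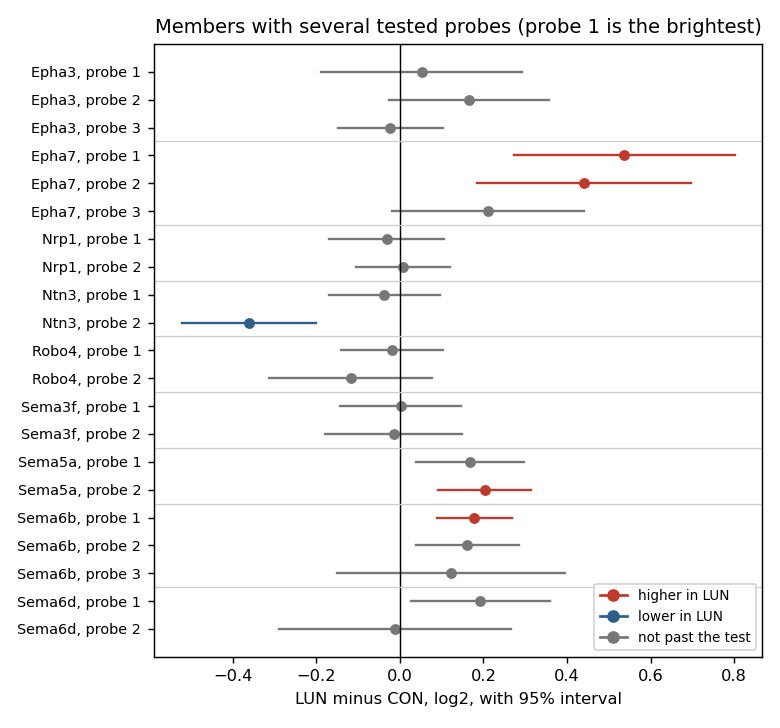
Change of every tested probe of the 9 members with several tested probes (horizontal axis, LUN minus CON in log2 units, with the 95% interval as a line), with probe 1 the brightest of its gene. The Epha7 probes run from 0.54 to 0.21, and the Ntn3 probes stand at -0.04 and -0.36.

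The remaining 22 members were not tested. Of these, 12 were detected on no array, namely Epha2, Epha10, Ephb3, Efna2, Ntn1, Unc5d, Unc50, Unc5cl, Plxna4, Plxnd1, Sema3e and Sema3g. The other 10 were detected on 1 to 7 arrays, namely Epha1, Efna3, Efna4, Ntn4, Plxna1, Robo2, Sema3d, Sema6c, Slit1 and Slit3. A low signal of a probe does not show that the gene is silent. Just inside the threshold stood the third Epha7 probe, detected on 10 arrays, and just outside it stood Slit1, detected on 4 LUN and 3 CON arrays.

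Among the untested members was Epha1, an Eph receptor best known from epithelia. Its brightest probe was detected on 5 LUN arrays and on no CON array. That probe had values of 4.67 to 5.24 on LUN arrays with a mean of 4.98, and of 4.33 to 4.84 on CON arrays with a mean of 4.53. Its level in CON mice is only bounded. With each CON array given its lowest detected signal, the LUN mean of this probe lay 1.07-fold above the CON mean. LUN arrays without detection kept their measured values, so this is not a strict lower bound. The other 3 Epha1 probes were each detected on at most 1 array of a group. Their means were 4.40 to 4.56 on LUN arrays and 4.36 to 4.53 on CON arrays.

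The downstream and partner genes of these receptors were set beside them with a list of 54 genes that the symbol rule leaves out: other cues, co-receptors and the cytoplasmic proteins that link receptors to the actin skeleton. Of 45 on the array 37 were tested. Of these 10 rose (27.0%) and 1 fell (2.70%), against 7.17% and 8.59% of all tested genes, and 5 were past 1.5-fold. The list is not independent of the outcome, since 6 of its tested genes are named in the tables of the study, and those 6 made up 5 of the 10 that rose and the 1 that fell. Of the other 31, 5 rose (16.1%) and none fell, with a median change of 0.00. The 26 partners that did not pass had changes between -0.17 and 0.49.

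The largest rises among the partners were those of Ntng1, Vav3, Tiam1, Cfl1 and Ablim3. Ntng1, which encodes netrin-G1, a lipid-anchored protein of thalamic axons that does not bind the classical netrin receptors, rose by 1.15 (adjusted p = 0.00303), with values of 11.1 to 11.7 on LUN arrays and 9.64 to 11.4 on CON arrays. Vav3, an activator of Rac that acts below Eph receptors, rose by 1.01 (adjusted p = 0.0164), and Tiam1, another Rac activator, by 0.74 (adjusted p = 0.00165). For Ntng1, Vav3 and Tiam1 the high CON values were those of CON 4 and CON 8: for Ntng1 11.44 and 11.21, against 9.64 to 10.57 on the other 6 CON arrays. Cfl1, the actin-severing protein cofilin, rose by 0.61 (adjusted p = 0.000412) with no overlap between the groups, and there CON 4 and CON 8 were the lowest CON arrays.

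Ablim3, an actin-binding protein, rose by 0.39 (adjusted p = 0.0230). Flrt2, a membrane ligand of Unc5d, was the only partner that fell, by 0.72 (adjusted p = 0.00546), with values of 7.40 to 8.21 on LUN arrays and 7.72 to 9.07 on CON arrays. Its highest value was that of CON 4. The other 5 partners that rose, named after their values had been seen, were Dpysl4 by 0.35 and Dpysl5 by 0.31, both of the family of collapsin response mediators that act below semaphorins, Gpc1 by 0.31, a heparan sulphate carrier that binds Slits, Nrcam by 0.25, a cell adhesion molecule that assists semaphorin receptors, and Rgma by 0.24, a ligand of Neo1. Dpysl4 and Nrcam did not overlap between the groups. Beside Rgma, Neo1 itself had the change of 0.15 that missed the threshold.

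Markers of neighbouring tissue moved with the groups, and their part in the results above was not tested. Of 15 thalamus genes named in the tables of the study all 15 rose, against 7.17% of all tested genes. Those tables were drawn from these same arrays, so this count follows from the choice of genes and is no independent support. The summed normalized signal of the 15 genes ranged from 12790 to 17160 on LUN arrays and from 5298 to 16030 on CON arrays. Among 6 tested thalamus genes that the study does not name, 1 rose, Lhx9 with 0.73 (adjusted p = 0.0334), and Zic4 had 0.46; their sum ranged from 1169 to 1480 on LUN arrays and from 863.3 to 1627 on CON arrays. Of 14 tested hypothalamic genes 8 fell and none rose, against 8.59% and 7.17% of all tested genes. Among those that fell was Oxt with -0.89. Hcrt, Oxt, Trh, Pomc, Avp and Cartpt are genes that the study itself reports as lower in LUN mice, so this count is not independent of it. Of the 14 tested genes, 6 did not pass: Npy with 0.12, Foxb1 with 0.06, Dlx1 with -0.03, Lmx1b with -0.09, Nkx2-1 with -0.20 and Six3 with -0.29. The sum of the 14 genes ranged from 9921 to 14160 on LUN arrays and from 11880 to 21120 on CON arrays. Pomc was detected on 8 CON arrays and on no LUN array, so its level in LUN mice is only bounded, at least 1.53-fold lower. Its adjusted p of 0.000326 in limma was computed from the measured values and does not test this bound. The other 7 that fell, Oxt, Avp, Hcrt, Trh, Pmch, Cartpt and Ghrh, were detected on all 16 arrays, while Agrp, Sim1, Otp, Rax, Fezf1, Nr5a1, Bsx and Six6 were not detected on enough arrays to be tested.

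Of 16 meningeal genes 12 fell and none rose, against 8.59% and 7.17% of all tested genes. The falls were led by Ogn with -0.62 and Slc22a6 with -0.60. The sum of the 16 genes was 4543 to 5640 on LUN arrays and 5288 to 9406 on CON arrays. Among endothelial genes 2 of 11 rose and 1 fell, among myelin genes 2 of 9 fell, among microglial genes 1 of 7 rose and 1 fell, among astrocyte genes 3 of 9 rose and 3 fell, and none of 6 genes of oligodendrocyte precursors passed. Endothelial cells express Robo4, and Robo4 had a change of -0.02.

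The mean deviation of the 6 thalamus genes outside the tables of the study, in log2 units from the mean of each gene, was -0.14 to 0.53 on LUN arrays, 0.72 on CON 4, -0.01 on CON 8 and -0.47 to -0.28 on the other 6 CON arrays. Epha7 followed this order by group: it was high on the LUN arrays, on CON 4 and on CON 8, and low on the other CON arrays. With this thalamic score as a covariate its change was 0.27 (adjusted p = 0.119). None of the 44 members passed with the covariate, against 2.52% of all tested genes that rose and 3.30% that fell. Ephb1 had -0.15 (adjusted p = 0.0605), Sema6b 0.16 (adjusted p = 0.0772), Sema4g 0.22 (adjusted p = 0.183) and Sema4f -0.10 (adjusted p = 0.301), so Epha7 and Sema4f lost the largest share of their changes. The score itself was higher in LUN mice, with a difference of 0.39 between the group means. Score and group are thus partly tied, and a group change is estimated less precisely with the score in the fit. A call lost with the covariate therefore does not show what the change came from, which was not tested.

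**Figure D5:**
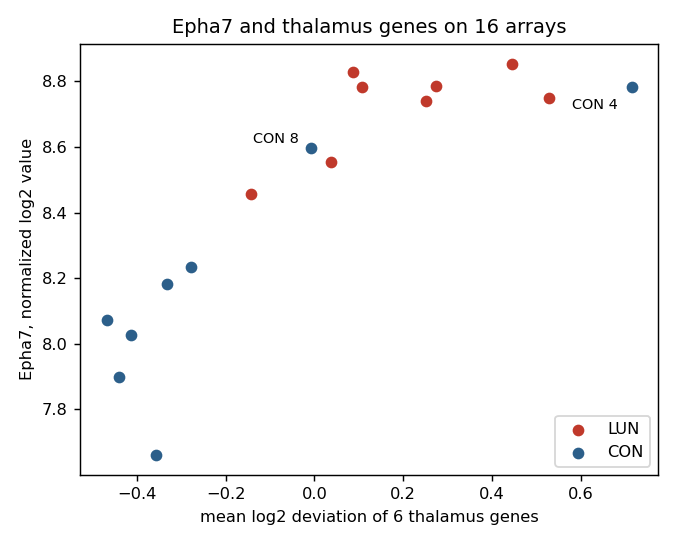
Epha7 (vertical axis, normalized log2 value) against the mean deviation of 6 thalamus genes (horizontal axis, log2 units) on 16 arrays, with LUN and CON arrays in different colours. CON 4 at 0.72 and CON 8 at -0.01 lie among or beyond the LUN arrays on the horizontal axis, and the other 6 CON arrays lie at -0.28 or below with the lowest Epha7 values.

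Without CON 4 and CON 8, 4 members rose and 6 fell, against 9.43% and 11.8% of all tested genes. The 5 members above were among them, and Sema5a (0.24, adjusted p = 0.00184) was added to those that rose. Sema3a (-0.25, adjusted p = 0.00364), Slit2 (-0.23, adjusted p = 0.0276), Sema4a (-0.18, adjusted p = 0.0235) and Ntn5 (-0.23, adjusted p = 0.0296) were added to those that fell. CON 4 and CON 8 were singled out from these same data, because they stood apart from the other CON arrays in thalamus genes. Calls gained without them are therefore no independent support. Of the 44 members, 33 had a change of larger size without these arrays. This was not counted over all tested genes, so it is not shown to be particular to the members. The share of all tested genes past the test was 15.8% with these arrays and 21.2% without them. CON 4 and CON 8 both lay above the other 6 CON arrays in 5 members (11.4%), namely Epha3, Epha7, Robo1, Sema5a and Sema6b, against 8.48% of all tested genes. They both lay below in 7 members (15.9%), namely Efna1, Efna5, Ntn3, Sema3a, Sema3f, Sema4b and Slit2, against 12.8% of all tested genes.

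The spread between mice set what could be seen. The SD of a member over the mice of a group had a median of 0.14 (0.05 to 0.32) in LUN mice and 0.15 (0.05 to 0.36) in CON mice, and it was larger in CON mice for 27 of 44 members. The 8 mice of a group were treated as independent, although the litter of each was not given in the sources used here and the methods list 8 LUN and 4 CON litters.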

How the data were processed

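Hypothalamic RNA of 16 female mice, 8 LUN and 8 CON, was hybridized to Illumina MouseRef-8 v2 arrays. The intensities deposited by the authors are mean bead signals per probe from GenomeStudio, neither background-subtracted nor normalized between arrays, and the detection p-values deposited beside them compare each signal with the negative controls of its array. The log2 values deposited by the authors were quantile-normalized and centred on each probe, and served as an alternative here. From the intensities, log2 values were computed with neqc of limma 3.58.1 in R 4.3.3 (normexp background from the detection p-values, offset 16, quantile normalization). Gene symbols came from the platform annotation, updated by Entrez ID: 23978 of 25697 probes had 1 symbol and 1719 had none. The 14870 probes with a detection p-value under 0.05 on at least 8 arrays were fitted with lmFit and eBayes, with group as the only term and Benjamini-Hochberg adjustment over these probes. A gene was its tested probe with the highest mean, and 56 of 98 member probes were tested.

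Every tested member is named, and from the list of partner genes the 5 largest rises and falls past the test are named. The members and lists were chosen with earlier results of these data known, and no list is independent support. Alternatives were other detection filters, median scaling, no normalization, no background correction, an offset of 50, a t-test, the log2 values as deposited, weights for arrays, the BeadChip or the replicate number as a block, each BeadChip alone, each array left out, CON 4 and CON 8 left out, a thalamic score as a covariate and the dimmest probe of a gene. Nothing shows that arrays of a group share RNA, and no probe sequence or coordinate was used. The number of arrays limits the precision.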

Additional observations from a re-analysis of the deposited data

Results flagged for a closer look

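In 4 of the 88 groups of 8 arrays examined (44 members in 2 groups) 1 array stood apart from the other 7 by Dixon's test at its 95% critical value. This is 4.55%, and chance gives about 1 in 20. Sema4g, a rise in LUN mice, was 7.788 on LUN 4, against 8.115 to 8.323 on the other LUN arrays. Epha3 was 7.454 on CON 4, against 6.628 to 6.980 on the other CON arrays, and Sema3f was 7.794 on CON 4, against 8.056 to 8.235. Epha4 was 5.753 on CON 2, against 4.737 to 5.186 on the other CON arrays.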

How the results depend on the processing

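Epha7, Ephb1 and Sema6b passed the test in all 16 fits with 1 array left out. Over these fits 2 to 4 members rose, 1 to 3 fell and 0 to 1 was past 1.5-fold (Epha7, without CON 4 or without CON 8), the median change over members was -0.0035 to 0.0228, and 10 to 12 partners rose and 1 to 2 fell. Scaling mattered most. With median scaling, which put the median of all genes at -0.10, 1 member rose and 7 fell (all genes: 3.42% and 28.3%), 8 partners fell and the median change over members was -0.0558. Without normalization, which put it at -0.26, 0 members rose and 21 fell (all genes: 1.19% and 60.1%), 4 partners rose and 16 fell, the median change over members was -0.21, and 25 of the 26 positive changes turned negative, all but that of Epha7. Among them were Sema4g (-0.0355) and Sema6b (-0.11), which had passed the test, and Plxna2 (-0.27), Sema3f (-0.28) and Unc5b (-0.21), which now passed it as lower. With median scaling 13 of the 26 turned negative, none of them a member past the test, and no negative change turned positive in either setting. The cause was not tested.

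On BeadChip 1 alone 0 members rose and 0 fell, and 0 partners rose and 0 fell (limma, 4 arrays a group; all genes: 0.00976% and 0.0293%). On BeadChip 2 alone 0 members rose and 0 fell, and 1 partner rose and 1 fell (all genes: 0.469% and 0.81%). The median change over members was -0.0268 there, and fewer arrays were fitted. With the replicate number as a block 2 members rose and 1 fell: Sema4g (adjusted p = 0.0657) and Sema4f (adjusted p = 0.0507) were lost. The deviations of same-numbered mice correlated at -0.288 to 0.0981, and 0 of 8 arrays correlated best with its own number. No sign that the numbers pair the mice was seen, but such correlations cannot exclude a pairing by litter or handling. Without CON 4 and CON 8, 6 members fell, 1 was past 1.5-fold and 2 partners fell. With the thalamic score as a covariate 0 members rose and 0 fell, and 6 partners rose. Array weights put 1 member past 1.5-fold, and 2 partners fell with array weights, with no background correction and with the t-test. The dimmest probe of each gene gave 5 calls, with Ntn3 and Sema5a in place of Epha7 and Sema6b.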
